A study of Mus musculus with 14 samples.

Results

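The genes of mitochondrial DNA were followed as 1 group across 14 mouse heart libraries. All genes that GENCODE M21 places on chromosome M were taken, which gave 37 of the 54532 genes in the count files. They comprised 13 protein-coding genes, 2 ribosomal RNA (rRNA) genes and 22 transfer RNA (tRNA) genes, each with a row in every count file. The libraries were 4 of wild-type hearts (WT), 4 of YG8-800 hearts, 3 of female KIKO-700 hearts and 3 of male KIKO-700 hearts, all on C57BL/6 and all labelled postnatal day 180, although the study's methods give an older age. The YG8-800 mice lack both mouse copies of the gene the study targets and carry a human transgene of it with an expanded intronic repeat. In KIKO-700 mice 1 copy of that gene is deleted and the other holds an expanded intronic repeat. WT hearts belonged to the YG8-800 experiment, and KIKO-700 had no wild-type hearts among the libraries used, so its only contrast here was male against female.

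Mitochondrial DNA is a small circular genome that is transcribed from both strands into long precursors. Its tRNAs lie between most of the other genes, and cutting the precursors at the tRNAs releases the mRNAs and rRNAs. The proteins are subunits of respiratory complexes I, III and IV and of ATP synthase, and the rRNAs and tRNAs serve the mitochondrial ribosome that makes them. Heart muscle is rich in mitochondria, and its mitochondrial mRNAs are among the most abundant transcripts of the tissue. The libraries were made with a kit that primes on runs of A, as in poly(A) tails, and reads the 3′ ends of transcripts, so a gene's count depends on where such a run lies as well as on the amount of RNA.

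Library totals ranged from 5226233 to 11650840 gene counts. Xist, the RNA of the inactive X chromosome, was above 10 CPM (counts scaled to a common library total) in WT 1, 2 and 4 and YG8-800 1 and 3, whereas genes of the Y chromosome were read in WT 3 and YG8-800 2 and 4, although the study's methods describe males. KIKO-700 libraries followed their labelled sex. Summed markers of cardiomyocytes reached 24154 to 52822 CPM in every library, and those of red blood cells were 1481 to 6790 CPM in the WT and YG8-800 libraries and 14081 to 19095 CPM in the KIKO-700 libraries. Among WT and YG8-800 libraries atrial markers varied from 82.7 to 1420 CPM, against 1660 to 2326 CPM in KIKO-700. Whether these differences moved the counts of mitochondrial genes was not tested.

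Sequences of members on which the results turn are printed first. The 4 most counted tRNAs, mt-Ti, mt-Tm, mt-Tl1 and mt-Tg, carry isoleucine, methionine, leucine and glycine, and mt-Td, for aspartic acid, differed most between the 2 mouse lines. Capitals mark the anticodon, located as the middle of a 7-base loop whose flanking arms of 5 bases pair at 4 or more positions. All are from the GENCODE M21 transcripts (GRCm38) and lie on the plus strand of chromosome M, at 3706 to 3774 (mt-Ti), 3845 to 3913 (mt-Tm), 2676 to 2750 (mt-Tl1), 9391 to 9458 (mt-Tg) and 6942 to 7011 (mt-Td).
mt-Ti: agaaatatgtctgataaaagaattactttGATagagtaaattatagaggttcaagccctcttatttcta
mt-Tm: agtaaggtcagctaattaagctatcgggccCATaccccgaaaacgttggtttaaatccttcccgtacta
mt-Tl1: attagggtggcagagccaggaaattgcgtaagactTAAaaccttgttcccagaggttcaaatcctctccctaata
mt-Tg: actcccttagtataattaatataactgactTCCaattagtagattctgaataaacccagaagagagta
mt-Td: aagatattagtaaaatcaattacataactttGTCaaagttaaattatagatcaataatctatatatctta

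Because the kit primes on A, the stretch of 20 bases richest in A was also read from each member. Capitals mark that stretch, and up to 5 bases on either side are in lower case. The 2 rRNAs held the most, 16 A of 20 in mt-Rnr2 from base 395 and 15 in mt-Rnr1 from base 656, and mt-Nd6 held 8, in a gene of 22.2% A overall.
mt-Rnr2: ttgctAAAAAAACAACAAAATCAAAaagta
mt-Rnr1: taagcAAAAGAATCAAACATAAAAAcgtta
mt-Nd6: atagcTACTGAGGAATATCCAGAGActtgg
These letters describe the genes. Whether reads began at them was not tested, since the files hold counts per gene and no read positions.

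Mitochondrial genes took a large part of every library. Their share of all counts was 34.4%, 34.6%, 44.6% and 38.0% in the WT libraries and 39.4%, 28.9%, 42.8% and 39.5% in the YG8-800 libraries. In KIKO-700 it was 33.5%, 33.3% and 33.8% in females and 31.2%, 37.1% and 37.2% in males. WT 3 was the highest and YG8-800 2 the lowest of all 14 libraries, and the groups overlapped in both experiments.

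The protein class supplied most of these counts. It made up 26.5% to 36.8% of counts in the WT and YG8-800 libraries and 30.8% to 36.4% in the KIKO-700 libraries. The rRNA class varied more as a fold between libraries, though not in percentage points. In WT it was 6.39%, 3.13%, 11.02% and 1.93% of counts, and in YG8-800 2.30%, 1.75%, 9.22% and 7.64%. Within each of these groups some libraries were high and others low, so that rRNA was from 5.09% to 24.7% of the mitochondrial counts. In KIKO-700 the class took 0.550%, 0.509% and 0.324% of counts in females and 0.255%, 0.537% and 0.564% in males, and no KIKO-700 library reached the lowest WT or YG8-800 library. The tRNA class was small throughout, at 0.371% to 0.949% in WT and YG8-800 and 0.122% to 0.258% in KIKO-700, again without overlap.

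**Figure D1:**
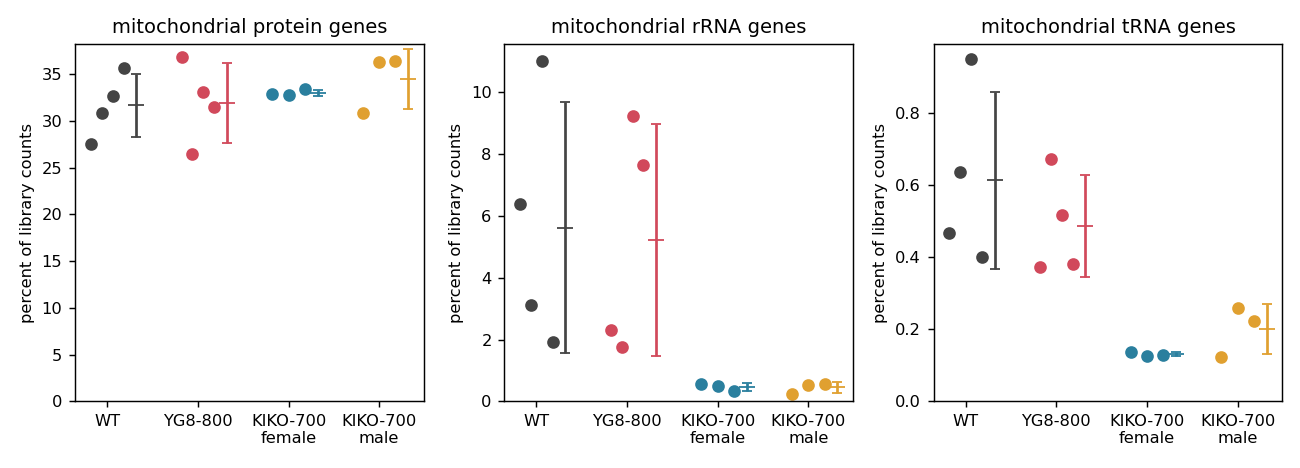
Percent of each library's counts on protein, rRNA and tRNA genes of mitochondrial DNA, by group. Points are libraries and bars are the mean ± SD of 4 or 3 libraries. The rRNA points of WT and YG8-800 spread from 1.75% to 11.02% and all lie above those of KIKO-700, whereas the protein points of the 4 groups overlap.

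The mitochondrial share did not differ between YG8-800 (37.6% ± 6.05, SD, n = 4) and WT (37.9% ± 4.79, SD, n = 4) beyond the spread between libraries (exact two-sided permutation test, p = 0.886, adjusted p = 0.886 over the 8 tests of class values). Nor did the log2 ratio of rRNA to protein counts, which was -2.95 ± 1.17 in YG8-800 and -2.79 ± 1.19 in WT (SD, n = 4, exact permutation p = 0.800, adjusted 0.886). For tRNA to protein the log2 ratios were -6.07 ± 0.58 and -5.77 ± 0.57 (SD, n = 4, exact permutation p = 0.457, adjusted 0.800). The smallest p that an exact permutation of 4 against 4 libraries can give is 0.0286.

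In KIKO-700 the mitochondrial share averaged 35.1% ± 3.41 in males and 33.6% ± 0.248 in females (SD, n = 3, exact permutation p = 0.400, adjusted 0.800), with 2 males above and 1 below all females. The log2 ratio of tRNA to protein counts was -7.49 ± 0.44 in males and -7.98 ± 0.07 in females (SD, n = 3, exact permutation p = 0.200, adjusted 0.800). For rRNA to protein it was -6.34 ± 0.50 and -6.20 ± 0.43 (SD, n = 3, exact permutation p = 0.50, adjusted 0.800). The smallest p that an exact permutation of 3 against 3 can give is 0.100, so these tests could not pass 0.05.

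Within the protein class, as counted on the mitochondrial genes alone, 4 genes held 88.6% to 94.8% of the counts. They were mt-Nd4, mt-Nd1 and mt-Nd2, subunits of complex I, and mt-Cytb, the only mitochondrially encoded subunit of complex III. Class shares in this paragraph leave out reads counted on nuclear copies, which are described further on. With its copy Gm28437, mt-Co3 took 7.72% to 9.74% of all counts in KIKO-700, more than mt-Cytb, mt-Nd1 or mt-Nd2 there. mt-Nd4 stood at 122803, 139432, 144168 and 151811 CPM in WT and 156520, 84556, 125388 and 126164 CPM in YG8-800. In KIKO-700 it reached 168969, 179232 and 189078 CPM in females and 168751, 186265 and 186596 CPM in males. All 6 KIKO-700 libraries thus lay above all 8 others, and mt-Nd4 was 51.3% to 56.6% of the protein class there against 31.9% to 45.3%.

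mt-Cytb was at 35915, 67591, 49064 and 77429 CPM in WT and 86841, 62165, 50493 and 51110 CPM in YG8-800. In KIKO-700 it held a narrower range, 56993 to 61820 CPM in females and 60565 to 65762 CPM in males. mt-Nd2 varied in another order across the same hearts, with 59044, 25121, 47731 and 45626 CPM in WT and 43294, 32836, 85694 and 66439 CPM in YG8-800. The library highest in mt-Cytb was YG8-800 1, and the one highest in mt-Nd2 was YG8-800 3. mt-Nd1 ranged from 35577 to 58059 CPM in WT and YG8-800 and from 36525 to 50082 CPM in KIKO-700.

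Genes are set side by side per kilobase of gene, although counts of a 3′ kit need not scale with length and the mean CPM in WT and YG8-800 puts mt-Nd2 above mt-Nd1. The per-kilobase values leave out reads counted on nuclear copies. On that scale mt-Nd4 was highest in both lines, with a mean of 95323 CPM per kb in WT and YG8-800 and 130490 in KIKO-700. mt-Cytb, mt-Nd1 and mt-Nd2 followed at 52514, 52083 and 48866 CPM per kb in WT and YG8-800. The cytochrome oxidase genes mt-Co1, mt-Co2 and mt-Co3 had 5080, 3480 and 5749 CPM per kb there, and the ATP synthase genes mt-Atp6 and mt-Atp8 had 2436 and 973. For mt-Co1, mt-Co2, mt-Co3 and mt-Atp6 reads were also counted on nuclear copies, described further on. With its copy mt-Co3 took 5.62% to 8.10% of counts in WT and YG8-800, beside 0.214% to 0.769% without it. mt-Atp6 with its copy took 3.68% to 6.25%, beside 0.130% to 0.236%. The place of mt-Co3 and mt-Atp6 below mt-Cytb, mt-Nd1 and mt-Nd2 therefore does not hold with the copies added.

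mt-Nd6, a complex I subunit and the only protein gene on the minus strand, was by far the lowest of its class. It had 3.62, 4.07, 5.55 and 5.80 CPM in WT and 8.41, 4.48, 4.36 and 3.90 CPM in YG8-800, or 29 to 98 counts a library. In KIKO-700 it had 1.20 to 2.14 CPM in females and 1.08 to 2.30 CPM in males, from 8 to 25 counts. Its mean was 9.68 CPM per kb in WT and YG8-800, and in every library it was the lowest of the 13 protein genes on that scale. At 14 of its bases it overlaps the 3′ end of mt-Nd5 on the other strand.

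**Figure D2:**
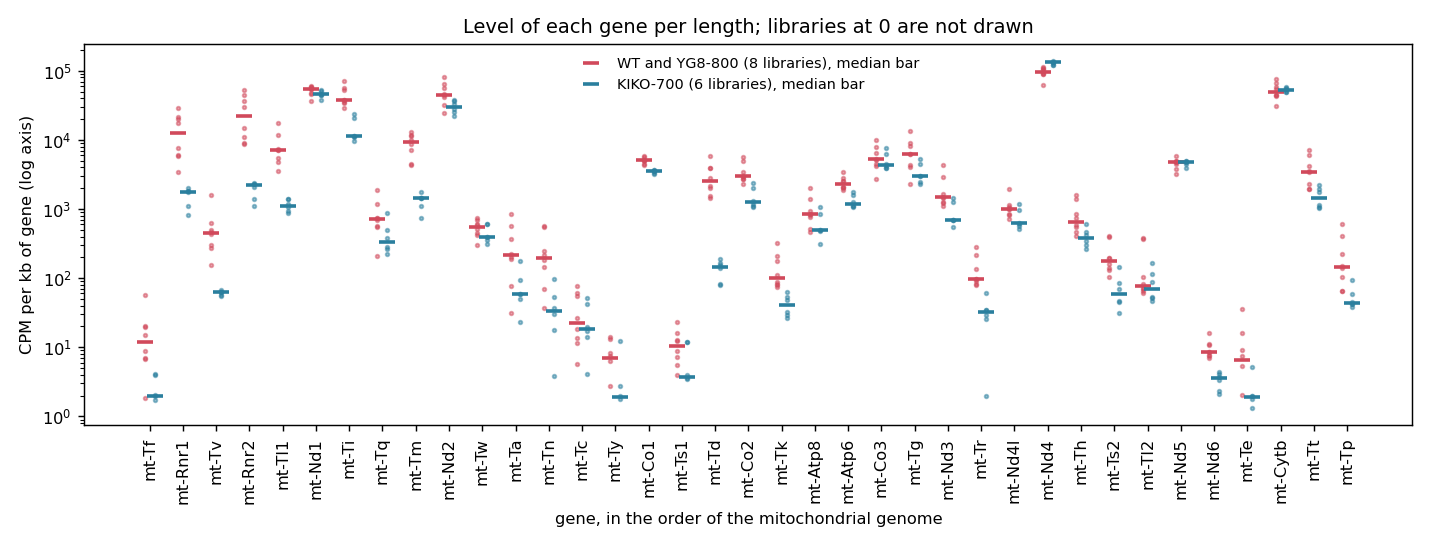
CPM per kilobase of gene (log axis) for the 37 genes in the order of the mitochondrial genome. Reads counted on nuclear copies are left out. Points are libraries and bars are medians of the 8 WT and YG8-800 and the 6 KIKO-700 libraries. mt-Nd4 is the highest gene in both, mt-Nd6 and several tRNAs are the lowest, and the rRNAs and mt-Td stand far lower in KIKO-700.

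Of the complex I genes not yet described, mt-Nd5 was at 5784 to 10745 CPM in WT and YG8-800 and 7264 to 8992 CPM in KIKO-700, and mt-Nd3 at 389 to 1522 and 192 to 509 CPM.

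Several protein genes share transcripts. mt-Atp8 and mt-Atp6 overlap by 43 bases and are translated from a single mRNA, as are mt-Nd4l and mt-Nd4, which overlap by 7. mt-Atp8 was at 104, 155, 414 and 192 CPM in WT, and mt-Atp6 at 1305, 1747, 2359 and 1732 CPM. In YG8-800 mt-Atp8 was at 95.9, 286, 166 and 175 CPM and mt-Atp6 at 1401, 1935, 1374 and 1418 CPM, so the upstream gene of the pair was the lower in each library. mt-Nd4l was at 216, 248, 588 and 335 CPM in WT and 240, 322, 295 and 299 CPM in YG8-800. Beside the mt-Nd4 values above, its contrast was far steeper as counted on the mitochondrial genes alone. With nuclear copies added, described further on, that order reversed in WT and YG8-800. mt-Nd4 with Gm28439 then took 9.06% to 16.4% of counts, and mt-Nd4l with Gm10222 0.372% to 0.746%. mt-Atp6 with Gm10925 took 3.68% to 6.25%, beside at most 414 CPM for mt-Atp8. No copy of mt-Atp8 was among those described. In both shared mRNAs the gene at the 3′ end carried the larger count. Whether this came from the kit's reading of 3′ ends was not tested.

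The rRNAs were mt-Rnr1, of the small ribosomal subunit, and mt-Rnr2, of the large one. mt-Rnr2 was at 46965, 23881, 82387 and 13716 CPM in WT and 17201, 14156, 71658 and 57524 CPM in YG8-800. mt-Rnr1 was at 16948, 7411, 27843 and 5616 CPM in WT and 5754, 3306, 20525 and 18889 CPM in YG8-800. Both were high in WT 1, WT 3, YG8-800 3 and YG8-800 4 and low in the other 4 libraries, 2 of each genotype. In KIKO-700 mt-Rnr2 was at 2198 to 3826 CPM in females and 1766 to 3693 CPM in males, and mt-Rnr1 at 1045 to 1758 and 786 to 1945 CPM. The ratio of mt-Rnr2 to mt-Rnr1 counts was 2.44 to 4.28 in WT and YG8-800 and 1.90 to 2.29 in KIKO-700.

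The 4 libraries high in mitochondrial rRNA were also the 4 high in Gm42418, a gene on chromosome 17 that the RefSeq gene table lists as a synonym of Rn18s-rs5, a pseudogene of cytosolic rRNA. Gm42418 took 3.00% of counts in WT 1, 2.85% in WT 3, 2.72% in YG8-800 3 and 2.62% in YG8-800 4, against 0.694% to 1.05% in the other WT and YG8-800 libraries. In KIKO-700 it took 0.0396% to 0.134%. The same 4 high libraries had less mt-Cytb (35915 to 51110 CPM against 62165 to 86841) and mt-Nd1 (35577 to 51437 against 52790 to 58059) than the other 4, and more mt-Nd2 (47731 to 85694 against 25121 to 45626). The other protein genes and all tRNAs overlapped between these libraries. The split was drawn from the same counts, and the share of all genes without overlap was not computed for it. Since the 8 libraries fall into 2 clusters, no correlation over them is given. The part of RNA quality, rRNA content or priming in these counts was not tested.

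**Figure D3:**
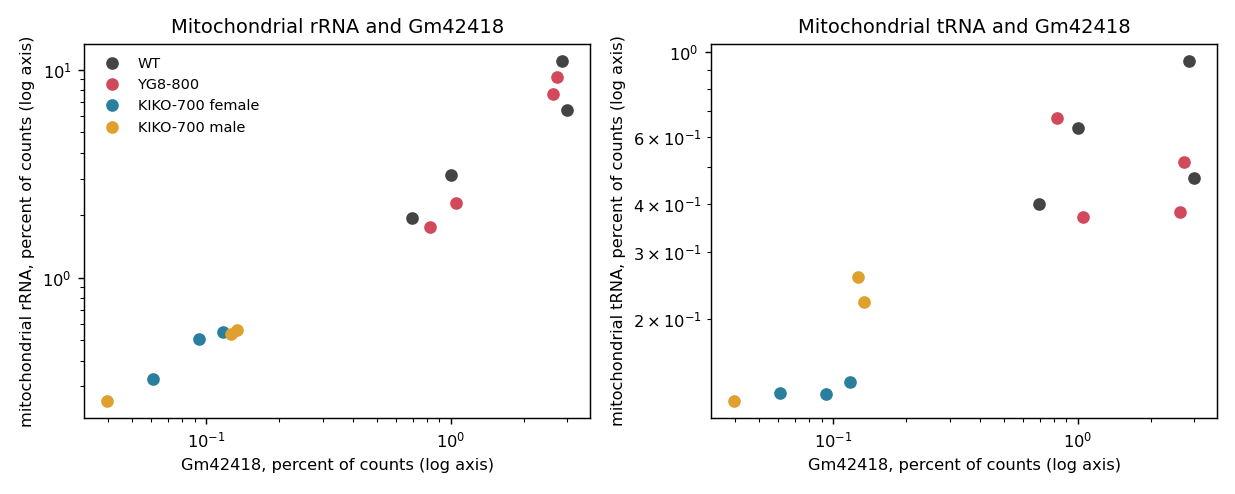
Percent of counts on mitochondrial rRNA (left) and tRNA (right) against percent on Gm42418, both axes logarithmic, with 1 point per library. WT and YG8-800 split into 4 libraries at 2.62% or more Gm42418 with at least 6.39% rRNA and 4 at 1.05% or less with at most 3.13%, and KIKO-700 lies below both, while tRNA is not split in this way.

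The tRNA class was dominated by mt-Ti, with 51.1% to 64.2% of its counts. mt-Ti was at 2634, 3903, 4955 and 2402 CPM in WT and 2353, 3665, 2635 and 2013 CPM in YG8-800. In KIKO-700 it was at 799, 767 and 776 CPM in females and 670, 1656 and 1421 CPM in males. Together with mt-Tm, mt-Tl1 and mt-Tg it held 81.9% to 90.4% of tRNA counts in every library.

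mt-Tm was at 597, 310, 821 and 298 CPM in WT and 488, 779, 899 and 683 CPM in YG8-800. mt-Tl1 was at 262, 889, 1297 and 531 CPM in WT and 357, 527, 561 and 406 CPM in YG8-800, and mt-Tg at 549, 425, 925 and 277 and at 159, 604, 430 and 292 CPM. WT 3 was the highest WT library for each of the 4 tRNAs, and the genotypes overlapped for each. In KIKO-700 mt-Tm was at 51.6 to 122 CPM, mt-Tl1 at 66.5 to 105 CPM and mt-Tg at 157 to 355 CPM.

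Of the remaining tRNAs mt-Tt was the highest, at 130 to 477 CPM in WT and YG8-800. mt-Td followed at 102 to 407 CPM, with a median of 176 CPM there. Next came mt-Tq, mt-Th, mt-Tw and mt-Tv, whose medians there were 51.0, 44.1, 36.6 and 31.0 CPM. The medians of mt-Ta, mt-Tn, mt-Ts2, mt-Tp, mt-Tr, mt-Tk, mt-Tl2 and mt-Tc were lower, from 14.7 CPM for mt-Ta down to 1.497 CPM for mt-Tc. The tRNAs of the minus strand among these varied widely, mt-Ta from 2.15 to 59.1 CPM and mt-Tn from 2.66 to 40.6 CPM.

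At the other end, mt-Tf, mt-Ty, mt-Ts1 and mt-Te, for phenylalanine, tyrosine, serine and glutamic acid, had at most 28 counts in a library. mt-Ty was at 0 in 4 libraries, mt-Te in 3 and mt-Tf and mt-Ts1 in 1 each, where 0 counts allow a level of up to 0.404 CPM (3 counts, counting error only). These 4 did not pass the filter on low counts in either comparison, and the other 33 members did.

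The level of a tRNA gene did not simply follow the gene before it. mt-Ti overlaps the last 2 bases of mt-Nd1 and had 40.5 to 96.3 counts per 1000 counts of mt-Nd1 in WT and YG8-800 and 17.7 to 33.1 in KIKO-700. mt-Tg directly follows mt-Co3 and had 74.3 to 120 per 1000 and 50.2 to 63.9. That ratio leaves out Gm28437, a nuclear copy of mt-Co3 described further on. The copy held 7.10 to 25.3 times the counts of mt-Co3 in WT and YG8-800 and 13.1 to 30.2 times in KIKO-700. Per 1000 counts of gene and copy together mt-Tg would be far lower. In contrast mt-Th, for histidine, 1 base after mt-Nd4, had only 0.175 to 1.26 per 1000 counts of mt-Nd4 and 0.0945 to 0.219, although mt-Nd4 was the most counted gene of the genome. Reads of a tRNA gene may come from the tRNA or from precursors that hold it, and counts per gene do not separate them.

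Genes on the minus strand, mt-Nd6 and 8 tRNAs, together gave 407 to 1510 counts in WT and YG8-800 and 196 to 692 counts in KIKO-700. That was 0.00886% to 0.0701% and 0.00821% to 0.0256% of the mitochondrial counts. WT 3 and YG8-800 2 had the largest shares, 0.0647% and 0.0701%. The log2 ratio of minus-strand to plus-strand counts was -12.01 ± 1.24 in YG8-800 and -11.68 ± 0.75 in WT (SD, n = 4, exact permutation p = 0.714, adjusted 0.886) and -12.72 ± 0.80 in KIKO-700 males and -13.33 ± 0.24 in females (SD, n = 3, exact permutation p = 0.300, adjusted 0.800).

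Nuclear copies of mitochondrial genes took a further part of the reads. Among genes with a Gm name and at least 1% of the counts of any library, 7 aligned to a mitochondrial gene over 100 bases or more. They are Gm29216, Gm28661, Gm10925, Gm28437, Gm28438 and Gm28439, which lie together on chromosome 1 between 24611535 and 24616197 (GRCm38), and Gm13339 on chromosome 2. Gm10222, below 1% and chosen after its counts were seen, matched mt-Nd4l without a mismatch over 294 bases. The 7 together held 16.5% to 26.1% of the counts of a library, and with them the share read as mitochondrial was 47.7% to 64.3%.

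Identical or nearly identical sequence stood on both sides of most pairs. Gm28661, Gm10925 and Gm28437 matched mt-Co2, mt-Atp6 and mt-Co3 without a mismatch over 681, 678 and 783 bases. Gm28439 matched the first 876 bases of mt-Nd4 without a mismatch and lacks its last 502. Gm29216 matched the last 483 bases of mt-Co1 with a single difference, A1066T, and Gm28438 matched mt-Nd3 over 345 bases with T3C (the mitochondrial base first, positions from the first base of the mitochondrial gene). Capitals mark both differences within the aligned stretches, which for mt-Co1 cover 31.3% of the gene.
mt-Co1: ggaAttgttttatccaact
Gm29216: ggaTttgttttatccaact
mt-Nd3: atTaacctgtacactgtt
Gm28438: atCaacctgtacactgtt

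For most of these pairs the copy carried more counts than the gene. mt-Co3, a core subunit of cytochrome oxidase, held 0.214% to 0.769% of counts in WT and YG8-800 and 0.304% to 0.607% in KIKO-700, whereas Gm28437 held 5.41% to 7.47% and 7.39% to 9.43%. Gm10925 exceeded mt-Atp6 by 20.03 to 37.4 times in WT and YG8-800 and by 50.3 to 78.6 times in KIKO-700. mt-Co2 and mt-Nd3 were likewise exceeded, by 8.78 to 27.3 times and by 13.9 to 42.0 times over all libraries. Only for mt-Nd2 (copy to gene 0.0434 to 0.348) and mt-Nd4 (0.0184 to 0.106) among the 8 pairs did the mitochondrial gene hold more in every library. The counts of these 8 genes are therefore uncertain, because reads from identical stretches can fit both places equally. How the authors' counting treated such reads is not given in the sources used here. Equal fit does not extend over every pair. Gm13339 matched mt-Nd2 at 96.7% over 510 bases, with 17 mismatches, and the last 502 bases of mt-Nd4 lie outside its copy.

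The mt-Co1 pair differed between the lines. mt-Co1 held 0.675% to 0.900% of counts in WT and YG8-800 and 0.494% to 0.568% in KIKO-700, while Gm29216 held 3.40% to 4.85% and 0.555% to 0.798%. The copy thus exceeded the gene by 3.78 to 7.06 times in WT and YG8-800 and by 1.10 to 1.57 times in KIKO-700. Summed, the pair took 4.28% to 5.54% and 1.06% to 1.37% of counts, without overlap.

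**Figure D4:**
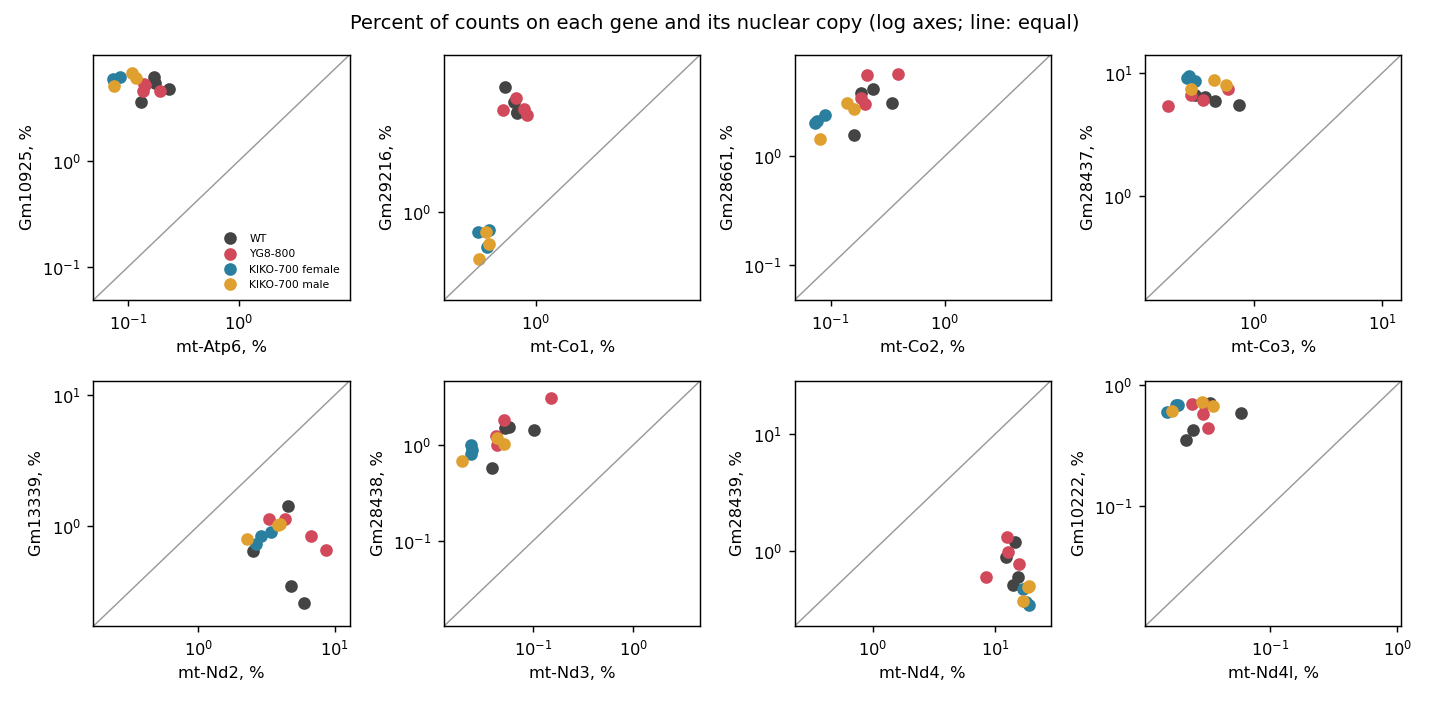
Percent of library counts on a nuclear copy (vertical) against the mitochondrial gene it matches (horizontal), both axes logarithmic, for 8 pairs, with 1 point per library. Points above the line of equal values have more counts on the copy. All 14 libraries lie above it for mt-Atp6, mt-Co1, mt-Co2, mt-Co3, mt-Nd3 and mt-Nd4l and below it for mt-Nd2 and mt-Nd4, and KIKO-700 stands apart for mt-Co1.

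The lines differed in other members as well. In 12 of the 37 genes all 8 WT and YG8-800 libraries lay above all 6 KIKO-700 libraries in CPM, and in mt-Nd4 alone all KIKO-700 libraries lay above. Of the 12503 genes with a mean of at least 1 CPM, 2.20% were higher in every WT and YG8-800 library in this way and 7.39% in every KIKO-700 library. The 12 were both rRNAs, 7 tRNAs (mt-Tv, mt-Tl1, mt-Ti, mt-Tm, mt-Td, mt-Tk and mt-Tr) and mt-Co1, mt-Atp6 and mt-Nd6. For mt-Atp6 the sum with its copy Gm10925 overlapped, at 3.68% to 6.25% of counts in WT and YG8-800 and 5.12% to 6.71% in KIKO-700.

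mt-Td showed the largest gap among them. It had 200, 273, 407 and 143 CPM in WT and 108, 278, 152 and 102 CPM in YG8-800, against 5.75, 9.76 and 11.5 CPM in KIKO-700 females and 5.52, 10.7 and 13.1 CPM in males. The median over WT and YG8-800 was 17.2 times that over KIKO-700, next to 10.2 times for mt-Rnr2, 7.12 times for mt-Rnr1 and 1.19 times for mt-Nd1. No test was made between the lines, because line, cohort and library preparation cannot be told apart in this design, and Gm42418 and red blood cell markers also separated them.

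YG8-800 hearts were then compared with WT gene by gene with edgeR's quasi-likelihood test over 11875 genes. No member passed an adjusted p of 0.05, as for all genes (background 0%), and none of the 33 tested had an unadjusted p below 0.05 either, where 6.05% of all genes did. The same 2 counts were 0 with DESeq2 and with limma-voom. The members' log2 fold changes ran from -0.94 to 0.64 with a median of -0.06, beside -0.01 for all genes, with 15 above 0 and 18 below. No member was without overlap between the genotypes in CPM, as 3.87% of all genes were.

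No tRNA or protein gene passed the test. Of 18 tRNAs tested 13 were below 0, with a median of -0.22, and of 13 proteins 9 were above 0, with a median of 0.18. mt-Tm had the smallest p, with 712 ± 174 CPM in YG8-800 and 506 ± 251 CPM in WT (SD, n = 4, log2 fold change 0.64 ± 0.38 SE, edgeR adjusted p = 0.846). mt-Td followed at 160 ± 81.6 and 256 ± 114 CPM (log2 fold change -0.59 ± 0.36 SE, edgeR adjusted p = 0.849), and mt-Tv, for valine, at 24.5 ± 10.96 and 49.8 ± 40.2 CPM (-0.94 ± 0.59 SE, edgeR adjusted p = 0.854). Without WT 3 mt-Tv was at -0.04 and mt-Td at -0.14 on the log2 scale. With each library left out in turn mt-Tm ran from 0.42 to 1.11 (edgeR unadjusted p from 0.00383 to 0.269). SEs of the 2 rRNAs were 0.69 and 0.72, so a change of 2-fold in rRNA was within the spread of the libraries. Without WT 3, also the library richest in rRNA, 2 members passed an unadjusted p of 0.05, beside 312 higher and 376 lower of 12247 genes. The median of the members was then 0.36. Without YG8-800 2 that median was -0.31.

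Males and females of KIKO-700 were compared over 11801 genes. No member passed an adjusted p of 0.05 in edgeR (background 0.0678%) or limma-voom, and 2 did in DESeq2. At an unadjusted p below 0.05, males exceeded females in 12 of 33 members and fell short in 0, which is 36.4% of those tested beside 7.14% of all genes (3.39% higher and 3.75% lower). The median log2 fold change was 0.55 over the members and 0.01 over all genes, and 31 of the 33 were above 0.

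The 12 comprised 8 tRNAs and 4 proteins, and no rRNA. mt-Tt, for threonine, was at 77.3, 69.2 and 71.6 CPM in females and 118, 148 and 129 CPM in males, without overlap (log2 fold change 0.87 ± 0.16 SE, edgeR adjusted p = 0.126). mt-Tl2, a leucine tRNA, was at 3.63, 3.33 and 3.73 CPM in females and 6.20, 11.9 and 8.28 CPM in males (1.31 ± 0.27 SE, edgeR adjusted p = 0.239). mt-Ts2, a serine tRNA, was at 1.88, 2.74 and 2.67 CPM against 4.18, 8.50 and 5.06 CPM (1.28 ± 0.32 SE, edgeR adjusted p = 0.360). In all 3 the males lay above the females and KIKO-700 male 2 was the highest.

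mt-Th was at 20.5, 22.9 and 17.9 CPM in females and 28.2, 40.9 and 30.9 CPM in males (0.72 ± 0.19 SE, edgeR adjusted p = 0.395). mt-Th, mt-Ts2 and mt-Tl2 are neighbours, between mt-Nd4 and mt-Nd5, and all 3 stood among the 4 members with the smallest p. mt-Tg was at 203, 166 and 157 CPM against 207, 355 and 300.3 CPM (0.73 ± 0.21 SE, edgeR adjusted p = 0.492), and mt-Tw, for tryptophan, at 24.0, 21.1 and 26.0 against 26.7, 40.0 and 40.6 CPM (0.62 ± 0.21 SE, edgeR adjusted p = 0.555). In mt-Tg and mt-Tw KIKO-700 male 1 lay just above the highest female and the other 2 males well above.

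Among proteins mt-Atp8 was at 101, 98.7 and 64.0 CPM in females and 101, 218 and 172 CPM in males (0.92 ± 0.29 SE, edgeR adjusted p = 0.544). mt-Co2 was at 896, 764 and 725 CPM against 812, 1613 and 1387 CPM (0.70 ± 0.24 SE, edgeR adjusted p = 0.594), and here male 1 lay within the females. mt-Co3 (0.58 ± 0.22 SE) and mt-Nd4l (0.65 ± 0.25 SE) also had male 1 within the females, as did mt-Tq (0.94 ± 0.38 SE), whereas for mt-Ti (0.71 ± 0.30 SE) male 1 lay below them, with edgeR adjusted p from 0.633 to 0.665. For mt-Co3 the direction turned when its copy Gm28437 was added, at 9.04%, 9.37% and 9.74% of counts for the sum in females and 7.72%, 8.59% and 9.27% in males. The sums of mt-Co2 with Gm28661 and of mt-Nd4l with Gm10222 overlapped between the sexes, at 2.05% to 2.47% and 0.607% to 0.703% in females and 1.495% to 3.17% and 0.626% to 0.749% in males. The abundant mt-Nd4, mt-Cytb and mt-Nd1 overlapped between the sexes, at 180537 and 179093, 63451 and 58637, and 45213 and 43514 mean CPM in males and females. mt-Rnr2 and mt-Rnr1 averaged 3026 and 1492 CPM in males and 3120 and 1492 CPM in females.

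In all, 8 of the 33 members did not overlap between the sexes, each higher in males, which is 24.2% beside 11.3% of all genes in either direction. Among the 8, mt-Atp8 was parted only by 101.02 CPM in the highest female and 101.03 CPM in the lowest male. mt-Nd5 was also among them, with a log2 fold change of 0.16 ± 0.15 SE (edgeR adjusted p = 0.884). The number of members that passed depended on KIKO-700 male 1, and also on the filter, the tool and a Gm42418 covariate. Male 1 had the lowest mitochondrial share (31.2%), the lowest Gm42418 (0.0396%) and the highest cardiomyocyte markers (52822 CPM) of the 6. Without it 19 members passed an adjusted p of 0.05 in edgeR, 12 tRNAs and 7 proteins, all higher in males, while 491 of all 12245 genes tested were higher and 373 lower. Without KIKO-700 male 2 no member passed an adjusted p, 7 passed an unadjusted one and the median was 0.24. Over all genes 236 were then higher and 224 lower of 12208 at an unadjusted p.

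**Figure D5:**
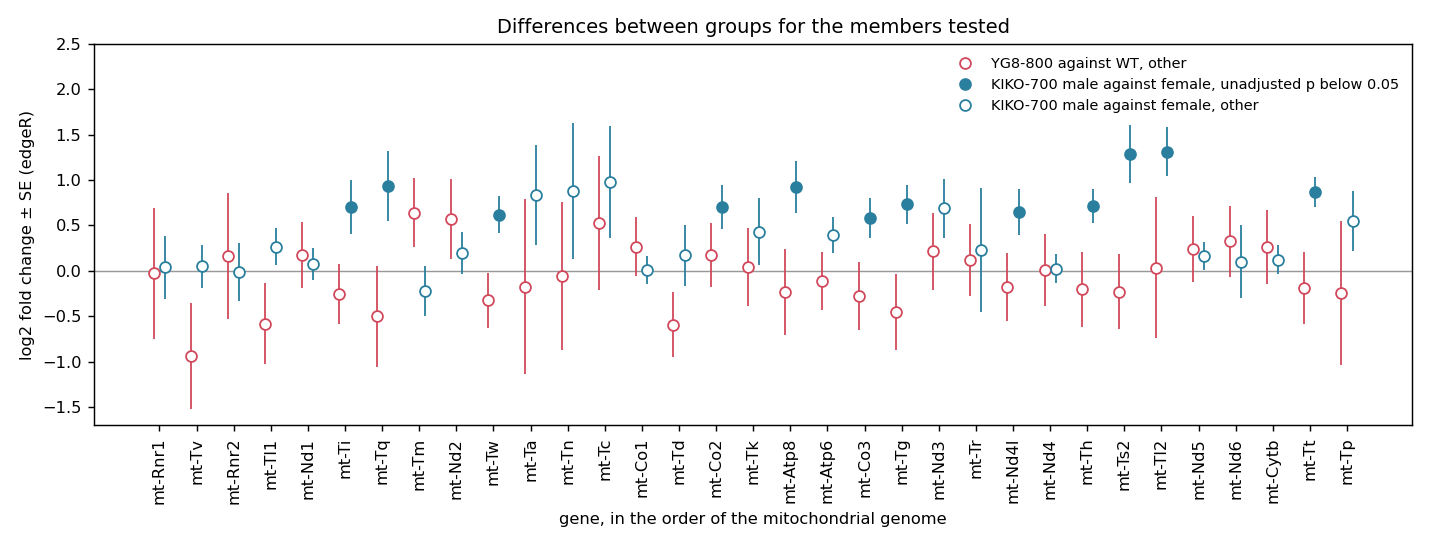
Log2 fold change ± SE from edgeR for the 33 members tested, in genome order, for YG8-800 against WT and for KIKO-700 male against female. Filled points have an unadjusted p below 0.05 and no point passes an adjusted p of 0.05. The 12 filled points are all in the KIKO-700 comparison and above 0, and the YG8-800 points lie on both sides of 0 with wide errors.

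Nuclear genes that transcribe, cut, tail or modify mitochondrial RNA were taken as the other genes of the pathway, 62 in the files. In YG8-800 against WT 55 were tested, with an unadjusted p below 0.05 for 6 on the higher side and 1 on the lower, and 0 passed an adjusted p, also in DESeq2 and limma-voom. That is beside 3.04% of all genes higher and 3.01% lower, and the list's median log2 fold change was 0.13.

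Slirp, which binds mitochondrial mRNAs with Lrpprc and protects them from decay, was at 47.7, 56.9, 50.9 and 64.5 CPM in WT and 90.7, 127, 61.4 and 86.2 CPM in YG8-800 (0.86 ± 0.27 SE, edgeR adjusted p = 0.786). Tfb1m, which methylates mitochondrial rRNA, was at 1.72 to 2.75 CPM in WT and 3.36 to 4.09 CPM in YG8-800 (1.01 ± 0.33 SE, edgeR adjusted p = 0.786), and only Tfb1m among the 6 higher genes did not overlap. Tfb2m, a transcription initiation factor (0.96 ± 0.32 SE), Trit1, which modifies tRNAs (0.98 ± 0.38 SE), Mrm3, an rRNA methyltransferase (0.88 ± 0.35 SE), and Angel2 (0.58 ± 0.26 SE) were the others, each below 15 CPM. Ddx28, an RNA helicase of ribosome assembly, was the lower gene, at 4.91 to 7.65 CPM in WT and 2.49 to 3.90 CPM in YG8-800 (-0.75 ± 0.34 SE, edgeR adjusted p = 0.816).

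Polrmt, the mitochondrial RNA polymerase, was at 2.105 to 5.54 CPM in WT and 4.36 to 5.46 CPM in YG8-800. Tfam, which packages and helps to transcribe the genome, was at 13.7 to 16.8 and 12.6 to 29.1 CPM, and Lrpprc at 99.1 to 213 and 63.6 to 164 CPM. Mtpap, the mitochondrial poly(A) polymerase, and Elac2, which cuts the 3′ ends of tRNAs, were at 5.67 to 8.23 and 4.54 to 10.4 CPM and at 1.64 to 4.87 and 2.63 to 6.18 CPM. The genotypes overlapped for all 5.

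In KIKO-700 52 of these nuclear genes were tested, of which 3 had a higher and 1 a lower level in males with an unadjusted p below 0.05, and 0 passed an adjusted p in edgeR, DESeq2 or limma-voom. Over all genes 3.39% were on the higher and 3.75% on the lower side, so the count was near the background. Eral1, a chaperone of mitochondrial rRNA, was at 3.81 to 5.38 CPM in females and 6.07 to 9.19 CPM in males (0.66 ± 0.23 SE, edgeR adjusted p = 0.595). Slirp was the lower gene, at 73.5, 78.1 and 76.0 CPM against 59.1, 50.7 and 63.3 CPM (-0.38 ± 0.16 SE, edgeR adjusted p = 0.650). Trmt10c, part of the enzyme that cuts the 5′ ends of tRNAs (1.13 ± 0.49 SE), and Trnt1, which adds CCA to tRNAs (0.62 ± 0.28 SE), were the other 2, both below 5 CPM. The median over the list was 0.02, beside 0.55 for the mitochondrial members, and the difference between the lists was not tested.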

How the data were processed

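Hearts were profiled by 3′ RNA sequencing of total RNA with a poly(A)-primed kit (Lexogen QuantSeq FWD). The deposited values are whole-number read counts per Ensembl gene, 1 file per library, made by the authors. The submitters' processing notes name STAR 2.5.0a, HTSeq and GRCm38.p6, whereas the study's methods name Rsubread with stranded featureCounts, and which made these files was not resolved. Of 54532 IDs 54409 matched GENCODE M21. CPM is counts over all gene counts of a library. Comparisons used edgeR 4.0.16 (TMM factors, filterByExpr, robust quasi-likelihood fit, Benjamini-Hochberg over all genes tested). The study used limma, which was run as an alternative beside DESeq2, other scalings and filters, each library left out, and covariates for Xist and Gm42418. Class shares and ratios were compared by exact permutation of libraries, adjusted over 8 tests. Copies were aligned with BLAST+ 2.17.0. The fits were also run on simulated counts with known fold changes, drawn independently for each gene. Those counts did not hold the split of libraries by rRNA and Gm42418, and their outcome is not used here.

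Replicates are separate hearts by their labels. Same-numbered libraries did not deviate together (correlations -0.227 to 0.251 in YG8-800 and WT, -0.193 to -0.0385 in KIKO-700), so numbers were not used to pair them. The limit given for 0 counts covers counting error only, whereas SDs and SEs also hold the spread between libraries. All members may be named, with values in every library for the most counted and overlapping ones and up to 8 per comparison with an unadjusted p below 0.05, and from the nuclear list 7 set genes and up to 4 more per direction. Gm10222, Gm42418, mt-Td and mt-Tv were given in full after their values were seen. The members and lists were chosen with earlier results of these data known. The check of the targeted gene is not reported here.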

Additional observations from a re-analysis of the deposited data

Results flagged for a closer look

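Each of 8 class values and 37 gene levels was examined for a single library far from the rest in WT and in YG8-800, which made 90 groups of 4, and 13 stood out. The cut used would flag about 1 in 20 groups of independent, normally distributed values. The 90 groups share the same libraries and are not independent, so the 13 cannot be judged against that rate. YG8-800 2 held 8 of the 13, each time as the highest of its group. In that library mt-Co2 was at 3900 CPM against 1856 to 2065 in the others, mt-Atp6 at 1935 against 1374 to 1418, mt-Nd3 at 1522 against 423 to 510, mt-Tk at 21.3 against 4.81 to 5.73, mt-Tr at 18.9 against 5.45 to 6.61, mt-Th at 106 against 27.5 to 39.0, mt-Ts2 at 23.9 against 6.18 to 8.22 and mt-Tl2 at 27.2 against 4.36 to 7.35 CPM. WT 3 was the highest WT library in mt-Tq (135 CPM against 38.5 to 53.2), mt-Ts2 (23.5 against 9.32 to 11.5), mt-Tl2 (26.0 against 4.66 to 5.86) and mt-Tp (40.9 against 4.41 to 9.87). YG8-800 1 was highest in mt-Nd6, at 8.41 CPM against 3.90 to 4.48. YG8-800 2 had the lowest mitochondrial share and WT 3 the highest. Both held Y-chromosome genes, as did YG8-800 4, which held none of the 13. The causes were not tested.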

How the results depend on the processing

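No class value passed an exact p of 0.05 under the settings run, but the KIKO-700 tests, the replicate block and the libraries with Xist could not reach it. The difference in mitochondrial share between YG8-800 and WT, -0.241 percentage points, turned to 1.85 with the Gm genes added, 1.94 with the 7 aligned copies added (chosen after seeing the data), 0.0520 without rRNA and 5.47 in the libraries with Xist. The log2 rRNA to protein difference of -0.16 turned to 0.28 in the libraries with Xist, and the minus to plus strand difference of -0.33 to 0.0307 with means of log2 counts. With each library left out in turn these 3 ran from -1.95 to 2.68, -0.63 to 0.25 and -0.84 to 0.15, and the KIKO-700 difference in rRNA to protein from -0.38 to 0.15. Without turning, the YG8-800 tRNA to protein difference ran from -0.57 to -0.09, and for KIKO-700 the share from 0.565 to 3.54 points and the strand ratio from 0.21 to 1.01.

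For YG8-800 against WT the members at an unadjusted p below 0.05 went from 0 to 6 without the filter, to 1 with Gm42418 as a covariate (chosen after seeing the data), to 1 with the replicate block, and to 0 to 2 with a library left out. Over all genes 946 were higher and 781 lower of 24532 without the filter. With the covariate 503 and 374 of 11875 were, and with the replicate block 599 and 268. Without WT 3, where 2 members passed, 312 and 376 of 12247 were. The nuclear genes went from 7 to 3 under library size alone, which moved the median of all genes to -0.21, and to 4 to 8 with a library left out. Under library size alone 171 of all 11875 genes were higher and 675 lower. The 8 nuclear genes came without WT 2, beside 242 higher and 278 lower of 12147, and without WT 4, beside 1092 and 603 of 12276. For KIKO-700 the members at an adjusted p went from 0 to 2 in DESeq2, 8 with the Gm42418 covariate, 10 without the filter and 0 to 19 with a library left out, and at an unadjusted p from 12 to between 7 and 25. Over all genes 11 were higher and 7 lower of 11801 at an adjusted p in DESeq2. With the covariate 60 and 45 of 11801 were, and without the filter 70 and 35 of 23238. Without male 1, where 25 members passed an unadjusted p, 1337 and 1273 of 12245 genes did. The 7 members came without female 2, male 2 or male 3. Of all genes 278 and 224 of 12107, 236 and 224 of 12208, and 457 and 483 of 12051 passed there. The nuclear genes at an unadjusted p went from 4 to 2 in DESeq2, 1 with the replicate block and 0 to 9 with a library left out, and at an adjusted p from 0 to between 0 and 3. At an unadjusted p 299 of all 11801 genes were higher and 267 lower in DESeq2, and 279 and 349 with the replicate block. The 9 and the 3 came without male 1, where 491 of 12245 genes were higher and 373 lower at an adjusted p. Fold changes of the named genes kept their direction in all 442 refits, but the unadjusted p lost its side of 0.05 in 28 of 187 for YG8-800 and 45 of 255 for KIKO-700 and gained it in 6. At most 28 counts a library limit mt-Tf, mt-Ty, mt-Ts1 and mt-Te.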

Other observations

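As a share of the protein-class counts, mt-Nd4 was 42.597% to 45.288% in the 4 WT libraries and 31.948% to 42.556% in the 4 YG8-800 libraries. It was the only 1 of the 13 protein genes whose share did not overlap between these groups, the gap between the nearest libraries was small, and the gene was picked after its values were seen, so no test is given. In KIKO-700 the only such gene was mt-Atp8, at 0.0192% to 0.0308% in females and 0.0328% to 0.0601% in males. In CPM 3.87% of all genes did not overlap between YG8-800 and WT, and 11.3% between the KIKO-700 sexes. No such background was computed for shares of the protein class, so 1 gene of 13 is not read as a result. Reads counted on nuclear copies were left out of these shares and of the class total.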
